A study of Mus musculus with 6 samples.

Results

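Neuropeptide precursor genes were examined in the midbrain of C57BL/6 mouse embryos of mixed sex, at embryonic day 10.5, in the floor plate and in the ventral tissue beside it. The genes were Pnoc, Sst, Npy, Nts, Gal, Cck, Penk, Tac1, Vip and Adcyap1, and all probe sets annotated to exactly 1 of these symbols were taken. This gave 12 probe sets for 10 genes, out of 45037 probe sets that were not array controls and 18193 named genes. Tac1 and Adcyap1 each had 2 probe sets and the other genes 1. Floor plate samples (n = 3) held the ventral midline, the strip of cells that secretes Sonic hedgehog, and ventral lateral samples (n = 3) held the adjacent tissue. Every sample was a pool of tissue from 6 embryos, and 5 ng of its total RNA was amplified and hybridised to an Affymetrix mouse array. The labels do not tell which pools, if any, came from the same embryos, so the p-values measure the spread between these 6 pools.

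Neuropeptides are short signalling peptides cut from larger precursor proteins. The precursor enters the secretory pathway, is cleaved by proprotein convertases, and is stored in dense-core granules until release. The released peptides act mainly on G protein-coupled receptors, and in the adult brain many of them are made by neurons that also use GABA, glutamate or dopamine. In adult rodents, Sst and Npy are widely used as markers of GABAergic neurons, while Cck and Nts are found in some midbrain dopaminergic neurons.

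The deposited values are log ratios: each probe set is centred on its median over the 6 arrays. A value of 0 is therefore the middle of the 6 arrays for that probe set, and says nothing about how strongly the gene is expressed. Where the groups do not overlap, the centring places one group above 0 and the other below it. Neither the base of the logarithm nor the sign convention is documented, and the values were read as log2, rising with RNA abundance. Differences are given as floor plate minus ventral lateral, from limma fitted to all 45037 probe sets, with a Benjamini-Hochberg adjusted p under 0.05 as the threshold. In tissue pieces, fewer cells of a type and less RNA per cell cannot be told apart.

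Precursor genes went in both directions. Pnoc, Sst, Npy and Nts were lower in the floor plate, by 8.37-fold, 3.77-fold, 3.48-fold and 1.83-fold. Gal and Cck were higher there, by 2.04-fold and 1.80-fold. Penk, Tac1, Vip and Adcyap1 did not pass the test. In all, 6 of the 12 probe sets passed, where 4.71% of all probe sets did. The 4 lower ones stand against 2.01% of all probe sets called lower, and the 2 higher ones against 2.70% called higher. The 2 groups did not overlap for 8 of the 12 probe sets, against 22.4% of all probe sets. Of these 8, 6 were lower (11.0% of all probe sets) and 2 higher (11.5%). The median difference of the 12 probe sets was -0.68, and that of all probe sets was -0.0040. Without regard to sign, the medians were 0.86 and 0.13. The members were chosen with earlier results of these data known. These shares and medians therefore cannot show that precursor genes differ more often than other genes.

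**Figure D1:**
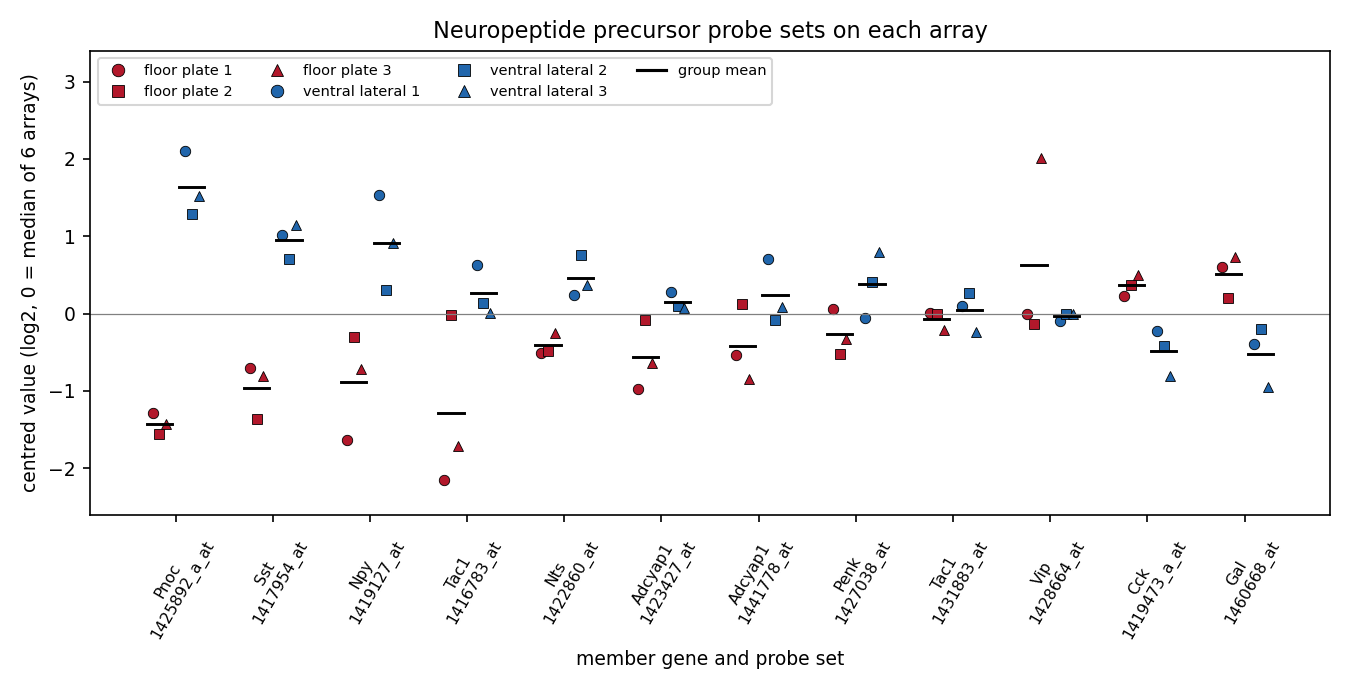
Centred value (log2 scale, vertical axis) of each neuropeptide precursor probe set (horizontal axis, ordered by difference) on the 3 floor plate arrays (red) and the 3 ventral lateral arrays (blue). The symbol shape gives the replicate number and the bar the group mean. The groups are far apart for Pnoc and Sst, Tac1 1416783_at has 1 floor plate array near the ventral lateral ones, and Vip has 1 array at 2.01 and the other 5 near 0.

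RefSeq promoter windows (assembly GRCm38.p6) were matched by symbol for 8 of the 10 genes, in 9 windows, all but Pnoc and Penk. Each window holds 250 bases before and 50 after a start site. Those of the 5 matched genes that passed the test are shown because these genes moved between the 2 regions, 3 of them down and 2 up. They are written 5′ to 3′ along the gene's strand. Capitals mark TGACG on either strand (read as CGTCA on the other), the 5-base core of the cAMP response element. The whole element, TGACGTCA, contains a core on each strand.
Sst (chr16:23890795-23891094, minus strand): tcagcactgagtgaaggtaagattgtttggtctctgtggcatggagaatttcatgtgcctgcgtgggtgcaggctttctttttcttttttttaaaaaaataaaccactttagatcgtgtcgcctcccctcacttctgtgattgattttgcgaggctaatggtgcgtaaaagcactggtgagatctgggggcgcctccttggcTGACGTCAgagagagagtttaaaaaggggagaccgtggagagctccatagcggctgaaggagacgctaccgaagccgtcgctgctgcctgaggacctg
Npy (chr6:49822460-49822759, plus strand): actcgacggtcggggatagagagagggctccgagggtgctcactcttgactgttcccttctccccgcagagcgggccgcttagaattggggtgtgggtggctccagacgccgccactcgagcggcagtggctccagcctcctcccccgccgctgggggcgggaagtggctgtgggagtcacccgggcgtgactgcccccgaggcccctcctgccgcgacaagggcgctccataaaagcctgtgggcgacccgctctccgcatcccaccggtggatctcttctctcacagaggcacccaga
Nts (chr10:102490369-102490668, minus strand): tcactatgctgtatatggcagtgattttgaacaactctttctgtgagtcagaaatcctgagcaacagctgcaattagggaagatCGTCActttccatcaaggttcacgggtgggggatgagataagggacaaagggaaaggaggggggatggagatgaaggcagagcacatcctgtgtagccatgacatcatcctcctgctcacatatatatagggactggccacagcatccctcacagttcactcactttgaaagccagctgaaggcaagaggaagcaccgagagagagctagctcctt
Gal (chr19:3414495-3414794, minus strand): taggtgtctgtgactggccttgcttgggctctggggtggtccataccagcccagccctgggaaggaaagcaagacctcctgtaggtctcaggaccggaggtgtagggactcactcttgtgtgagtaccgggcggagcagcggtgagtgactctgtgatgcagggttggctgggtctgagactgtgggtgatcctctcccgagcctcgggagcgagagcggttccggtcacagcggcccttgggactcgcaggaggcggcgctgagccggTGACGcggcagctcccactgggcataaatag
Cck (chr9:121495645-121495944, minus strand): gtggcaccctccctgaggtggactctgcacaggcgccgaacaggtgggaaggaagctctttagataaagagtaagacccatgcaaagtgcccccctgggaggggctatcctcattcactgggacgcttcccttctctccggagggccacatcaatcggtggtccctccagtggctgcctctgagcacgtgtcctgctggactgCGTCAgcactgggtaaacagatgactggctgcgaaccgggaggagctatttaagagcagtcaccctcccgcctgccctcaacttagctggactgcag
The whole element was found in the Sst window alone among the 9, starting 48 bases before the start site, and 1.79% of all 32851 windows of the same length held it. The core was in windows of 7 of the 8 genes, Npy being the exception, and in 20.8% of all windows. The 2 Adcyap1 windows overlap and share their core, which is counted once. The E-box pattern CANNTG, which does not overlap either motif in these windows and is not capitalised, was in windows of 4 of the 8 genes (Sst, Nts, Cck and Tac1) and in 72.3% of all windows. The core was thus present in windows of genes that were lower, higher and not called.

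The opioid-type precursors are Pnoc and Penk. Pnoc encodes prepronociceptin, the source of nociceptin, which acts on the receptor encoded by Oprl1. On probe set 1425892_a_at its values were -1.29, -1.56 and -1.43 in floor plate replicates 1 to 3, and 2.11, 1.29 and 1.52 in ventral lateral replicates 1 to 3. All floor plate samples lay far below all ventral lateral samples, with 2.58 log2 units between the nearest samples of the groups. The means were -1.43 ± 0.13 and 1.64 ± 0.42 (SD, n = 3 each). The log2 difference was -3.07 (SE 0.20, limma adjusted p = 0.000327), and only 0.173% of all probe sets had a larger difference in either direction. It was between -3.24 and -2.83 when any 1 sample was left out, and it passed each time. Penk encodes proenkephalin, the precursor of the enkephalins. On 1427038_at its values were 0.061, -0.52 and -0.32 in the floor plate and -0.061, 0.41 and 0.79 in ventral lateral samples. The groups overlapped, since floor plate replicate 1 lay above ventral lateral replicate 1. The log2 difference of -0.64 (SE 0.23, 95% interval -1.18 to -0.096) did not pass after adjustment (limma adjusted p = 0.219).

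Sst, the precursor of somatostatin, an inhibitory peptide, was next in size. Its values on 1417954_at were -0.70, -1.36 and -0.80 in the floor plate and 1.02, 0.70 and 1.15 in ventral lateral samples. The groups did not overlap, and the gap between them was 1.41. The log2 difference was -1.91 (SE 0.20, limma adjusted p = 0.00192), from means of -0.96 ± 0.35 and 0.96 ± 0.23 (SD, n = 3 each), and it passed when any 1 sample was left out (-2.04 to -1.71). Npy encodes neuropeptide Y, a peptide best known for its part in feeding and in the control of excitability. Its values on 1419127_at were -1.63, -0.30 and -0.72 in the floor plate and 1.53, 0.30 and 0.92 in ventral lateral samples. The groups were separate but each was broad, with means of -0.88 ± 0.68 and 0.92 ± 0.61 (SD, n = 3 each). The log2 difference was -1.80 (SE 0.39) and close to the threshold (limma adjusted p = 0.0461). It did not pass without floor plate replicate 1 (-1.43, adjusted p = 0.113) or 3 (-1.88, 0.106). Nor did it pass without ventral lateral replicate 1 (-1.49, 0.140) or 3 (-1.80, 0.127), or with array weights (-1.57, 0.0698). The Npy call was also lost with the replicate number as a block.

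Nts encodes the common precursor of neurotensin and neuromedin N, peptides that modulate dopaminergic neurons in the adult midbrain. On 1422860_at the values were -0.51, -0.48 and -0.25 in the floor plate and 0.25, 0.76 and 0.37 in ventral lateral samples. The groups did not overlap, and floor plate replicate 3 and ventral lateral replicate 1 were nearest to each other. The regions differed by -0.87 on the log2 scale (SE 0.15, limma adjusted p = 0.0196), from means of -0.41 ± 0.14 and 0.46 ± 0.27 (SD, n = 3 each). The call was lost without floor plate replicate 1 (-0.82, adjusted p = 0.0814), without replicate 2 (-0.84, 0.0642), and without ventral lateral replicate 3 (-0.91, 0.0547).

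Gal and Cck were the members that rose in the floor plate. Gal encodes the precursor of galanin, a peptide with mainly inhibitory actions. Its values on 1460668_at were 0.60, 0.20 and 0.73 in the floor plate and -0.40, -0.20 and -0.95 in ventral lateral samples. The groups did not overlap, and the replicate 2 samples of both were nearest to each other. The regions differed by 1.03 on the log2 scale (SE 0.22, limma adjusted p = 0.0399), from means of 0.51 ± 0.27 and -0.52 ± 0.39 (SD, n = 3 each). It did not pass without floor plate replicate 1 (0.98, adjusted p = 0.136), without replicate 3 (0.92, 0.124), without ventral lateral replicate 1 (1.09, 0.102) or 3 (0.81, 0.0771), or with array weights (0.95, 0.0622). The call was also lost with the replicate number as a block (adjusted p = 0.0826).

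Cck encodes the cholecystokinin precursor. On 1419473_a_at its values were 0.23, 0.37 and 0.49 in the floor plate and -0.23, -0.42 and -0.81 in ventral lateral samples. Every floor plate sample was higher than every ventral lateral sample. The regions differed by 0.85 on the log2 scale (SE 0.16, limma adjusted p = 0.0255), from means of 0.36 ± 0.13 and -0.49 ± 0.29 (SD, n = 3 each). It did not pass without floor plate replicate 1 (0.92, adjusted p = 0.0613), without replicate 2 (0.85, 0.0726), without replicate 3 (0.79, 0.0881), or without ventral lateral replicate 2 (0.88, 0.0621). A block on the replicate number also took it over the threshold (adjusted p = 0.0596).

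**Figure D2:**
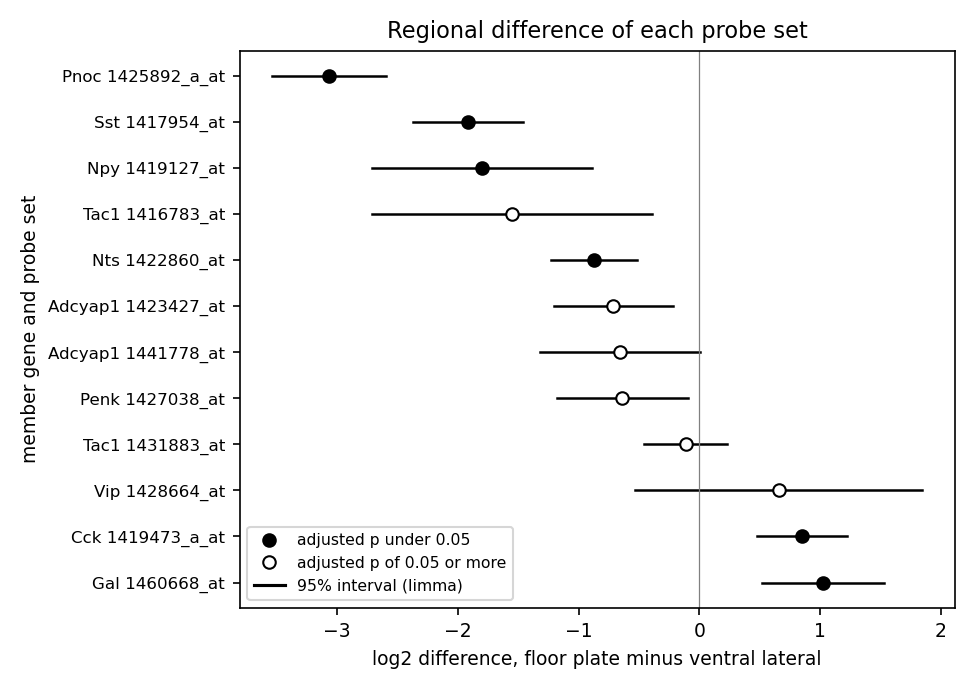
Log2 difference, floor plate minus ventral lateral (horizontal axis), with its 95% interval from limma, for each of the 12 probe sets (vertical axis). Filled points passed the adjusted threshold of 0.05. The filled points are Pnoc, Sst, Npy and Nts to the left of 0 and Cck and Gal to the right.

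Tac1, the precursor of substance P and neurokinin A, had 2 probe sets that differed from each other. On 1416783_at the values were -2.15, -0.014 and -1.71 in the floor plate and 0.63, 0.13 and 0.014 in ventral lateral samples. Floor plate replicates 1 and 3 were the lowest arrays, while floor plate replicate 2 lay 0.028 below the lowest ventral lateral sample. The log2 difference was -1.55 (SE 0.50, 95% interval -2.71 to -0.39), and it did not pass (limma adjusted p = 0.160). Without floor plate replicate 2 it was -2.19 and passed (adjusted p = 0.00454). On 1431883_at the values were 0.0096, -0.0096 and -0.21 in the floor plate and 0.096, 0.27 and -0.24 in ventral lateral samples, so the groups overlapped. The log2 difference there was -0.11 (SE 0.15, 95% interval -0.46 to 0.23, adjusted p = 0.787).

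Adcyap1 encodes the precursor of PACAP, a peptide related to VIP that acts on neural progenitors and neurons. On 1423427_at the values were -0.97, -0.076 and -0.64 in the floor plate and 0.28, 0.093 and 0.076 in ventral lateral samples. Here too floor plate replicate 2 was the floor plate sample nearest to the ventral lateral ones, with a gap of 0.15 between the groups. On 1441778_at the values were -0.54, 0.13 and -0.85 in the floor plate and 0.71, -0.087 and 0.087 in ventral lateral samples, and floor plate replicate 2 lay above 2 of the 3 ventral lateral samples. The log2 differences were -0.71 (SE 0.21, 95% interval -1.21 to -0.22, limma adjusted p = 0.131) and -0.66 (SE 0.29, 95% interval -1.32 to 0.0092, adjusted p = 0.310). Without floor plate replicate 2 they were -0.95 (adjusted p = 0.0192) and -0.93 (adjusted p = 0.113). Among floor plate samples, replicate 2 also had the highest mean over 15 pan-neuronal genes, at -0.06 against -0.28 in replicate 1 and -0.24 in replicate 3. The same held by a wider margin for mesenchymal (0.48 against -0.44 and -0.06) and endothelial genes (0.10 against -0.18 and -0.20). For blood genes it held by a narrower margin (0.10 against -0.05 and -0.04). Not every list did so: over motor neuron genes replicate 2 was lowest, at 0.06 against 0.13 and 0.15. Over all probe sets, replicate 2 had the smallest spread of the floor plate samples (SD 0.23, against 0.27 in replicate 1 and 0.28 in replicate 3). The part of the list differences and of this spread in the Tac1 and Adcyap1 values was not tested.

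Vip, the precursor of vasoactive intestinal peptide, was high on a single array. Its values on 1428664_at were 0.00071, -0.13 and 2.01 in floor plate replicates 1 to 3, and -0.10, 0.00 and 0.00 in ventral lateral replicates 1 to 3. Floor plate replicate 3 stood 2.01 above the next array, and the other 5 arrays overlapped. The log2 difference of 0.66 (SE 0.51, 95% interval -0.53 to 1.85, limma adjusted p = 0.609) became -0.032 without that sample (adjusted p = 0.936). Of all 45037 probe sets, 11 were at least 1 log2 unit above every other array in floor plate replicate 3, and Vip was the 1 with the largest such gap.

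Of 33 other neuropeptide precursor genes listed, 25 were measured, and 1 of these passed the test. For these and the lists that follow, 1 probe set per gene was used, that of largest variance over the 6 arrays, in a fit over 18193 genes. This choice favours probe sets that differ, and the lists were chosen with earlier results of these data known. In that fit 7.80% of genes passed, 4.49% higher and 3.31% lower. That gene was higher, and none was lower (limma; at an unadjusted p under 0.05 there were 3 higher and 1 lower), with a median log2 difference of 0.0078 against -0.0079 for all genes. The gene that rose was Iapp, the precursor of amylin, a peptide best known from pancreatic beta cells. Its values were 1.07, 1.34 and 0.68 in the floor plate and -0.68, -0.68 and -1.27 in ventral lateral samples. All floor plate samples were above all ventral lateral ones. Its log2 difference was 1.90 (SE 0.22, adjusted p = 0.00150), it passed when any 1 sample was left out, and its 4 probe sets gave 0.93 to 1.90. Trh, the precursor of thyrotropin-releasing hormone, was chosen after its values were seen. It was at -0.12, -0.10 and -0.15 in floor plate, and at 0.10, 3.10 and 3.54 in ventral lateral samples. Ventral lateral replicate 1 was near the floor plate samples and the other two far above, and the log2 difference of -2.37 (SE 0.77) did not pass (adjusted p = 0.119).

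Receptors of the members' peptides were measured for 27 of 28 genes listed. Of these 2 were higher and 1 lower in the floor plate (limma; 4 and 6 at an unadjusted p under 0.05). This is 11.1% called, near the 7.80% of all genes. Their median log2 difference was -0.071, against -0.0079 for all genes. Oprl1, encoding the nociceptin receptor, fell together with its ligand gene Pnoc. It was at -0.57, -0.28 and -0.81 in the floor plate and 0.70, 0.28 and 0.46 in ventral lateral samples, with no overlap. The log2 difference was -1.03 (SE 0.17, limma adjusted p = 0.00869). It passed when any 1 sample was left out (highest adjusted p = 0.0428). Its other probe sets were at -0.93 and -0.49 (adjusted p of 0.0592 and 0.0761 in the fit of all probe sets).

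Cckar, which encodes a cholecystokinin receptor best known from the gut, rose along with Cck. It was at 0.59, 0.34 and 1.63 in the floor plate and -0.84, -0.34 and -0.63 in ventral lateral samples. The groups did not overlap, and floor plate replicate 3 was the highest array. Its log2 difference was 1.45 (SE 0.31, limma adjusted p = 0.0278). It did not pass without floor plate replicate 1 (adjusted p = 0.0681), nor without ventral lateral replicate 1 (0.104) or 3 (0.0803). Cckbr, for the receptor that prevails in the adult brain, was at -0.0020 (adjusted p = 0.996).

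Tacr3, which encodes the receptor preferred by neurokinin B, a tachykinin made from Tac2 and not from Tac1, was also higher. Its log2 difference was 0.92 (SE 0.12, limma adjusted p = 0.00323), but its other probe sets were at 0.52 and 0.038 and did not pass (adjusted p of 0.343 and 0.915). Tac2 was at 0.11 (adjusted p = 0.838). The PACAP receptor gene Adcyap1r1 was at 1.06, 0.24 and 0.25 in the floor plate and -0.47, -0.24 and -1.16 in ventral lateral samples. The groups did not overlap, and the log2 difference of 1.14 (SE 0.29) missed the threshold (adjusted p = 0.0540). Among its other probe sets, 1429022_at was at 1.26 (adjusted p = 0.0147 in the fit of all probe sets) and 1450799_at at 0.39 (0.235). With its probe sets averaged, Adcyap1r1 was at 0.93 and passed (limma adjusted p = 0.0131). No receptor gene of the somatostatin, neuropeptide Y, neurotensin, galanin, enkephalin or VIP peptides passed in limma. The nearest was Sstr4, at 0.59 (adjusted p = 0.0563), whose other probe set was at -0.047.

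**Figure D3:**
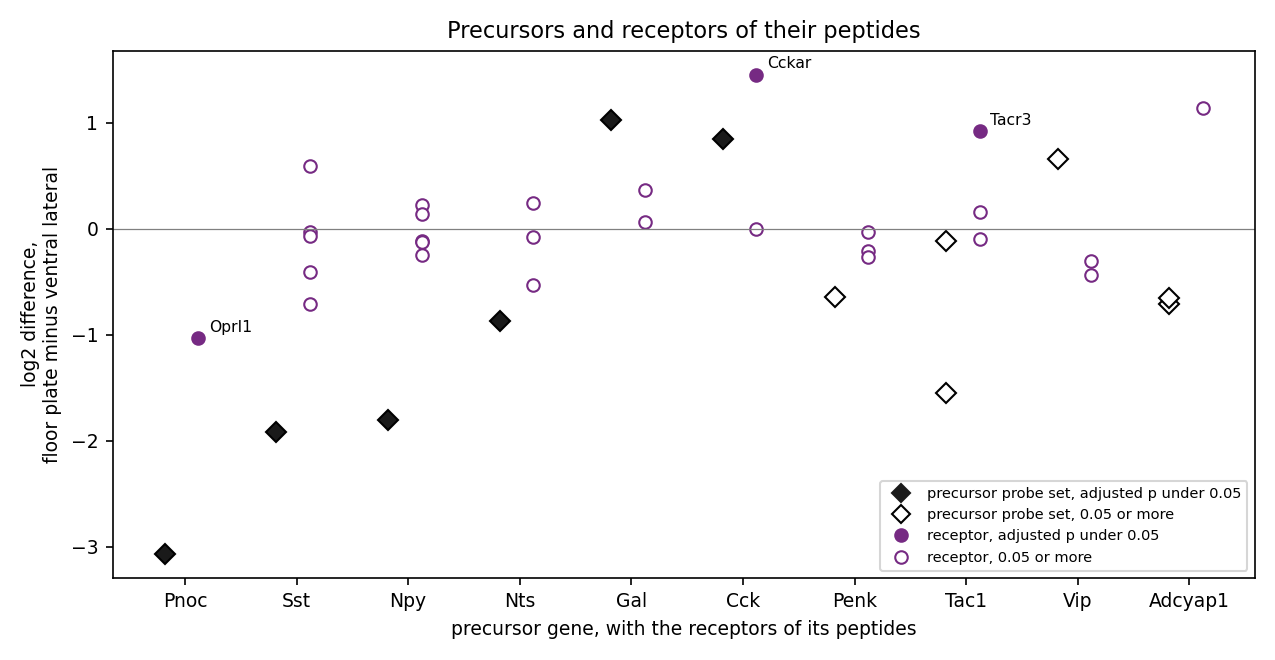
Log2 difference, floor plate minus ventral lateral (vertical axis), of each precursor probe set (diamonds) and of the receptor genes of its peptides (circles), by precursor gene (horizontal axis). Filled symbols passed the adjusted threshold of 0.05. Pnoc and Oprl1 both lie below 0 and Cck and Cckar both above it, while most receptors lie near 0. Tacr3 and Adcyap1r1 lie above 0, opposite to the Tac1 and Adcyap1 probe sets below it.

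Genes for prohormone processing and dense-core granules were split. Of 17 measured, 5 were lower and 3 higher, which is 47.1% against 7.80% of all genes, and the median log2 difference was -0.46. Ptprn (-1.21), encoding a granule membrane protein, and Chga (-1.06), encoding the granule core protein chromogranin A, led the lower ones. They were followed by the secretogranin genes Scg2 (-1.0) and Scg3 (-0.71). Chga was at -0.68, -0.37 and -0.64 in the floor plate and 0.70, 0.41 and 0.37 in ventral lateral samples. The related Chgb, encoding chromogranin B, went the other way, at 0.66, 0.79 and 0.85 in the floor plate and -0.66, -1.08 and -1.18 in ventral lateral samples. Neither gene's groups overlapped.

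Chgb was 3.35-fold higher in the floor plate (log2 difference 1.74, SE 0.16, limma adjusted p = 0.000432), and Chga 2.08-fold lower (-1.06, SE 0.14, adjusted p = 0.00317). Cadps2, which encodes a granule release factor, was higher (1.43, SE 0.16, adjusted p = 0.00149), as was the ubiquitous convertase gene Furin (0.51, SE 0.11, adjusted p = 0.0248). The fifth lower gene was Scg5 (-0.59), the chaperone of a convertase, named after its value was seen. Pcsk1, the neuroendocrine convertase gene measured here, was at -0.46 and did not pass (adjusted p = 0.295). Chga, Chgb, Cadps2 and Ptprn passed when any 1 sample was left out. Scg3 passed without each sample but floor plate replicate 3 (adjusted p = 0.0603). Scg2 did not pass without floor plate replicate 1 (0.0926), 2 (0.0678) or 3 (0.0901), nor without ventral lateral replicate 3 (0.0672). Scg5 did not pass without floor plate replicate 1 (0.0751) or 3 (0.0811), nor without ventral lateral replicate 1 (0.0833) or 2 (0.0751). Furin passed in none of these fits (adjusted p up to 0.0949).

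**Figure D4:**
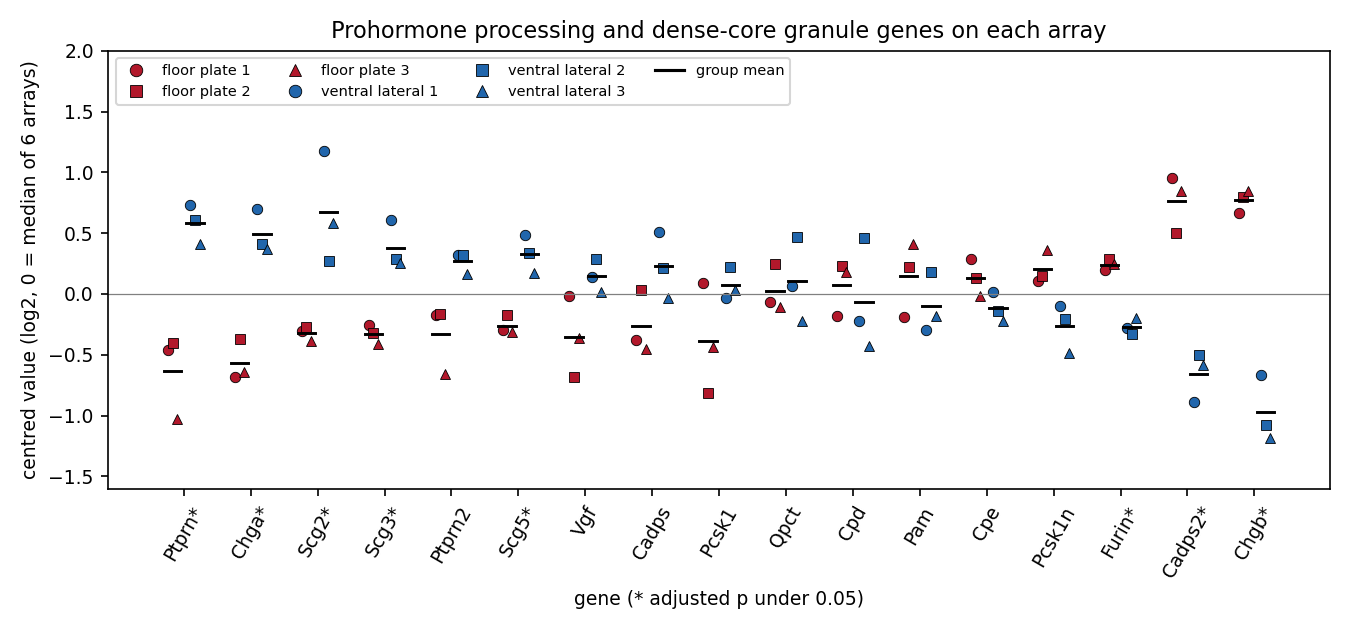
Centred value (log2 scale, vertical axis) of the 17 prohormone processing and dense-core granule genes (horizontal axis, ordered by difference) on each array, with floor plate in red and ventral lateral in blue. Bars are group means and asterisks mark an adjusted p under 0.05. Chga, Scg2, Scg3, Scg5 and Ptprn are low in the floor plate, and Chgb, Cadps2 and Furin high.

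Of 8 genes measured for enzymes that degrade peptides, 2 were higher in the floor plate and none lower (limma; 3 and 1 at an unadjusted p under 0.05), with a median log2 difference of 0.31. Mme encodes neprilysin, a membrane peptidase that cleaves enkephalins and substance P among others. It was at 1.08, 1.01 and 1.17 in the floor plate and -1.87, -1.01 and -1.5 in ventral lateral samples, so the groups were far apart. Its log2 difference was 2.55 (SE 0.20, adjusted p = 0.000241). Its other probe set was at 0.79 (adjusted p = 0.0113 in the fit of all probe sets). Ece1, a related peptidase gene, was at 0.50 (SE 0.10, adjusted p = 0.0242), at 0.23 and 0.30 on its other probe sets, which did not pass, and over the threshold when any 1 sample was left out (adjusted p up to 0.0822).

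Marker lists of neurons differed in their counts. Of 10 GABAergic neuron genes all 10 were lower in the floor plate, with list means of -1.87 to -1.55 on floor plate arrays and of 1.31 to 2.01 on ventral lateral arrays. Gad1, for a GABA-synthesising enzyme, differed by -4.56. Its other probe set was at -1.43 (limma adjusted p = 0.0181 in the fit of all probe sets). Slc32a1, also counted, had other probe sets at -0.64, -0.36 and -0.17, which did not pass there. Of 15 pan-neuronal genes 4 were lower and none higher (9 lower and 1 higher at an unadjusted p under 0.05), with means of -0.28 to -0.06 and -0.06 to 0.43. Of 8 dopaminergic neuron genes 2 were higher and 2 lower, with means of 0.25 to 0.34 and -0.78 to -0.22. Th (3.57) and Nr4a2 (1.90) were higher, and Ddc (-0.63) and Slc18a2 (-0.89) lower. Ddc and Slc18a2 each passed in 1 of 6 fits that left out 1 sample. Other probe sets of Nr4a2 were at -0.072 to 1.71, and that of Ddc at -0.24. Of 6 glutamatergic and red nucleus genes 2 were lower. The part of these lists in the precursor genes' differences was not tested. Of 10 progenitor genes 2 were higher and 2 lower. Motor neuron genes (7), neural crest and ganglion genes (7), blood genes (7), microglial genes (8), epithelial genes (7) and notochord genes (2) had no member past the threshold in limma. At an unadjusted p under 0.05 these held 3, 1, 0, 2, 2 and 0 genes. Mesenchymal genes had 1 of 13 higher and endothelial genes 1 of 9 lower, with mesenchymal means of -0.44 to 0.48 on floor plate arrays and of -0.36 to 0.25 on ventral lateral arrays. Centred values cannot show whether a marker is absent. For the labels, 11 of 11 floor plate genes were higher in the floor plate samples, and 7 of 10 ventral lateral midbrain genes were lower and 1 higher. These lists were chosen with earlier results of these data known, so the counts are no independent check of the labels. Shh was near the threshold (1.76, limma adjusted p = 0.0462) and passed in 2 of 6 fits that left out 1 sample. In the fit of all probe sets neither of its probe sets passed (adjusted p of 0.0734 and 0.560).

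Genes with the pattern most like each member that passed were taken as the 3 non-member genes at the smallest Euclidean distance over the 6 arrays. The arrays fall into 2 regions, so a high correlation comes with any similar regional difference. Nearest to Pnoc were Ndst3 (distance 0.29, Pearson r = 0.999), Zfpm2 (0.54, 0.990) and Dlk1 (0.58, 0.991), which encode a heparan sulfate enzyme, a cofactor of GATA factors and a Notch ligand-like protein. Nearest to Sst were Pde1b (0.36, 0.989), Sox2ot (0.47, 0.988) and Smoc1 (0.48, 0.985). Npy had no gene as close: Pax3, a dorsal patterning factor, was at 0.73 (r = 0.965), followed by Ptprz1 (0.77, 0.954) and the glutamate receptor gene Gria1 (0.78, 0.974). Rgs17 (0.25, 0.977), Tbx21 (0.29, 0.981) and Il17d (0.30, 0.995) were nearest to Nts. For Gal they were Tppp3 (0.29, 0.980), the proprotein convertase gene Pcsk5 (0.31, 0.989) and Sgms1 (0.33, 0.983). Cck had the closest neighbour, Ncald, encoding a neuronal calcium sensor (0.066, 0.998), before Klhdc8b (0.15, 0.992) and Fam210b (0.18, 0.994).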

How the data were processed

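Per the labels' protocols, RNA was amplified with NuGEN Ovation reagents and labelled with biotin, and the submitters' processing notes name RMA, with no version. The deposited values were taken as log2; in each of the 45101 rows (100%) the 6 arrays had a median within 1e-05 of 0. The centring step, a genome build and array batches are not given in the sources used here. Of these, 64 control probe sets were left out, and 34945 probe sets carried 1 symbol in GEO's platform annotation. The regions were compared in R 4.3.3 with limma 3.58.1 (lmFit, eBayes), and p-values were adjusted by Benjamini-Hochberg over all 45037 probe sets (threshold 0.05). Gene lists were described by counts. Named list genes were up to 4 per direction past the threshold, and genes named without passing were chosen after their values were seen. Members and lists were chosen with earlier results of these data known. On simulated data of 45037 probe sets the fit recovered 4% of changes of 0.5 (log2), 56% of 1, 90% of 2 and 98% of 3, and called 4 unchanged probe sets. Only 50 probe sets were changed at each size, with independent noise, whereas 2121 passed in the real data. The recovered shares therefore need not hold for these data. Python 3.11.15 drew the plots. The number of arrays limits the precision (median SE 0.127). Alternatives were other normalizations, eBayes settings, weights, blocks, thresholds, probe set choices and leaving out each sample.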

Additional observations from a re-analysis of the deposited data

How the results depend on the processing

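Over all probe sets 1218 were higher and 903 lower in the floor plate. The counts were 584 and 373 at a threshold of 0.01 and 1733 and 1419 at 0.1, and leaving out 1 sample gave 753 to 991 higher and 510 to 743 lower. The lowest of these were without floor plate replicate 1. Among the 12 member probe sets, 2 higher and 4 lower, the counts were 0 and 2 at a threshold of 0.01, 1 and 3 with array weights, and 0 to 1 and 2 to 5 when 1 sample was left out. They stayed at 2 and 4 under quantile normalization, array centring, cyclic loess, trended and robust eBayes, probe sets with 1 symbol only, without _x_at and _s_at probe sets, and with 1 value per gene. With the replicate number as a block 0 higher and 3 lower remained past the threshold, and 1062 and 842 over all probe sets. The labels give no pairing beyond the number. The correlations of same-numbered samples' deviations were 0.0096, 0.12 and 0.11. Floor plate replicates 2 and 3 correlated best with their own number, and replicate 1 with ventral lateral replicate 3 (0.027). Samples of different number gave -0.15 to 0.027. Deviations of 3 samples from their own mean depend on each other, so these values cannot decide whether the numbers are pairs. The main fit did not take them as pairs.

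Of 190 values of single member probe sets under the alternatives, 166 kept direction and side of the threshold, 20 lost the call, 2 gained it and 2 changed sign, none of a called probe set. Only the 6 probe sets that passed could lose a call, and each had 16 alternatives. Pnoc and Sst passed in all 16, Nts in 13, Cck in 11, and Npy and Gal in 10 each. The sign changes were Vip without floor plate replicate 3 (-0.032, against up to 1.04 without another sample) and Tac1 1431883_at without ventral lateral replicate 2 (0.0019, against down to -0.25). Leaving out 1 sample, an alternative added for the lists after seeing the data, gave 1 higher and 0 to 1 lower other precursors, 1 to 3 higher and 1 to 2 lower receptor genes, 2 higher and 2 to 4 lower granule genes, and 1 higher degrading enzyme. It gave 0 to 1 higher and 2 to 6 lower pan-neuronal genes and 9 to 10 lower GABAergic genes. With a gene's probe sets averaged, 3 receptor genes and 1 pan-neuronal gene were higher. Fewer samples also lower the residual degrees of freedom. The causes of the lost calls were not tested. Centred values hold no signal over background, so which probe sets are near background cannot be said.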
